A study of Felis catus with 8 samples.

Results

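The genes described here are 10 components of insulin signalling and of the growth hormone to IGF1 axis in cat liver: the secreted ligand IGF1, the binding proteins IGFBP1 and IGFBP2, the receptors GHR and INSR, the adaptors IRS1 and IRS2, the transcription factors FOXO1 and FOXO3, and the pseudokinase TRIB1. They were read through the probe sets that the array's annotation assigns to exactly 1 gene, that gene being among the 10, and there were 76 such probe sets among 257101 on the array. Of the 76, 54 were brighter on average than the median probe set (an intensity of 5.38) and were used for the gene values. All 10 genes had at least 1 probe set of this kind, and they were 10 of 18701 genes named by the array and of the 17910 tested. All 10 symbols were also present in the table of cat genes used here.

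Livers came from 9-month-old male cats (Felis catus) on 4 diets, with 2 arrays per diet. The control group ate standard chow. The MSG group ate chow with 1.125% monosodium glutamate. The trans-fat/HFCS group ate a diet with 8.6% trans fat and 24% high-fructose corn syrup, and the combined group ate a diet with all 3 additions at the same percentages. Dams were on their diet from 3 weeks before mating through pregnancy and nursing, and the sons were weaned onto it, so exposure before and after birth cannot be told apart. The labels number the arrays as separate cats and as biological replicates. They give 4 to 5 livers per diet for RNA but say nothing of litters or pooling, so p-values measure the spread between these arrays. The array was designed for human genes, so the signal of a probe also depends on how closely the cat transcript matches it. Levels are therefore compared between diets for one gene and never between genes.

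In liver, insulin binds its receptor INSR, which phosphorylates the adaptors IRS1 and IRS2 and so activates PI3 kinase and AKT. AKT keeps the FOXO transcription factors out of the nucleus, where they would otherwise promote genes of glucose production and fasting. Growth hormone acts through GHR, JAK2 and STAT5 to drive hepatic transcription of IGF1, and the liver supplies most of the IGF1 in blood. Circulating IGFs are carried by binding proteins, among which IGFBP1 is strongly repressed by insulin. TRIB1 is a scaffold that brings the ubiquitin ligase COP1 to C/EBP alpha, and its locus is known for its link to blood lipids.

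Every value below is the log2 of the deposited normalised intensity. A gene's value on an array is the mean over its probe sets in use. Median intensities of the 8 arrays were close, from 5.25 to 5.28. Over the values of the 17910 tested genes, arrays of the same diet correlated at 0.946 to 0.968, against 0.917 to 0.956 for arrays of different diets. Hepatocyte markers, 9 of 9 measured, were present on all arrays, and 0 of the 9 differed for the trans-fat/HFCS or the MSG main effect (limma). Skeletal muscle markers set both trans-fat/HFCS arrays apart: the summed intensity of 11 such genes was 733 to 759 there, against 190 to 194 on control arrays, 203 to 204 on MSG arrays and 195 to 214 on combined arrays. Of these 11 genes, 9 were higher for the trans-fat/HFCS main effect and 7 lower for the MSG main effect. Calls for the main effects are therefore also given without both trans-fat/HFCS arrays. In that setting the trans-fat/HFCS main effect is combined against MSG, and the MSG main effect is MSG against control. Of 8 other marker lists, macrophage, pancreas and adipocyte lists had 1 gene each called higher with trans-fat/HFCS, stellate and adipocyte lists 1 each called lower, and the endothelial, cholangiocyte, erythroid and lymphocyte lists 0. In whole liver, fewer cells of a type and less RNA per cell cannot be told apart.

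The largest number of calls among the 10 genes lay between diets with and without trans fat and HFCS, the comparison with the most calls over all genes. The trans-fat/HFCS main effect is the mean of the trans-fat/HFCS and combined diets minus the mean of the control and MSG diets. In it 4 of the 10 genes passed an adjusted p of 0.05 (limma, Benjamini-Hochberg over 17910 genes). TRIB1 and FOXO3 were called higher and IGF1 and FOXO1 lower, against 7.66% of all genes called, 4.44% higher and 3.22% lower. The FOXO3 call depends on a dim probe set that passed the brightness limit only through the arrays with trans fat and HFCS, and without it 3 of the 10 passed (FOXO3 then had an adjusted p of 0.13). At an unadjusted p under 0.05 there were 6 of 10, beside 24.5% of all genes. The median change of the 10 genes was -0.05, beside 0.02 over all genes tested. Of the 10, 4 did not overlap between the 4 arrays with and the 4 arrays without these additions (FOXO3 and TRIB1 higher, FOXO1 and IGFBP2 lower), a pattern that 15% of all genes had. FOXO3's bright probe set alone overlapped.

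The test of any difference among the 4 diets called 1 of the 10 genes, IGF1, against 3.2% of all genes. At an unadjusted p under 0.05 it gave 6 of 10 beside 19.7% of all genes. For the MSG main effect, the mean of both MSG-containing diets minus the mean of both others, limma called 0 of 10, where 0.329% of all genes passed. At an unadjusted p under 0.05 there were 2 of 10, beside 7.91% of all genes. Those 2 were IRS2 and IGF1 (unadjusted limma p 0.00113 and 0.00167). For trans-fat/HFCS, the called FOXO3 and FOXO1 had larger unadjusted p-values, 0.00170 and 0.00347. The adjustment depends on how many of all genes respond, so the counts of calls do not rank both main effects on these genes. The interaction, which asks whether the MSG difference depends on trans fat and HFCS, called 0 of 10 against 0.151% of all genes, and 1 of 10 at an unadjusted p under 0.05 beside 9.07%. Against control, 0 of 10 passed for the MSG diet (background 0.296%), 1 for the trans-fat/HFCS diet (background 2.48%) and 1 for the combined diet (background 1.16%). That gene was IGF1 in both. At an unadjusted p under 0.05 the counts were 3, 5 and 3 of 10 in the same order, beside 7.64%, 18.3% and 16.5% of all genes. These comparisons share the control arrays. The combined diet differed from the MSG diet in 0 of 10 genes (background 1.66%; unadjusted, 3 of 10 beside 17.3% of all genes). From the trans-fat/HFCS diet it differed in 0 of 10 (background 0.179%; unadjusted, 0 of 10 beside 8.98%).

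**Figure D1:**
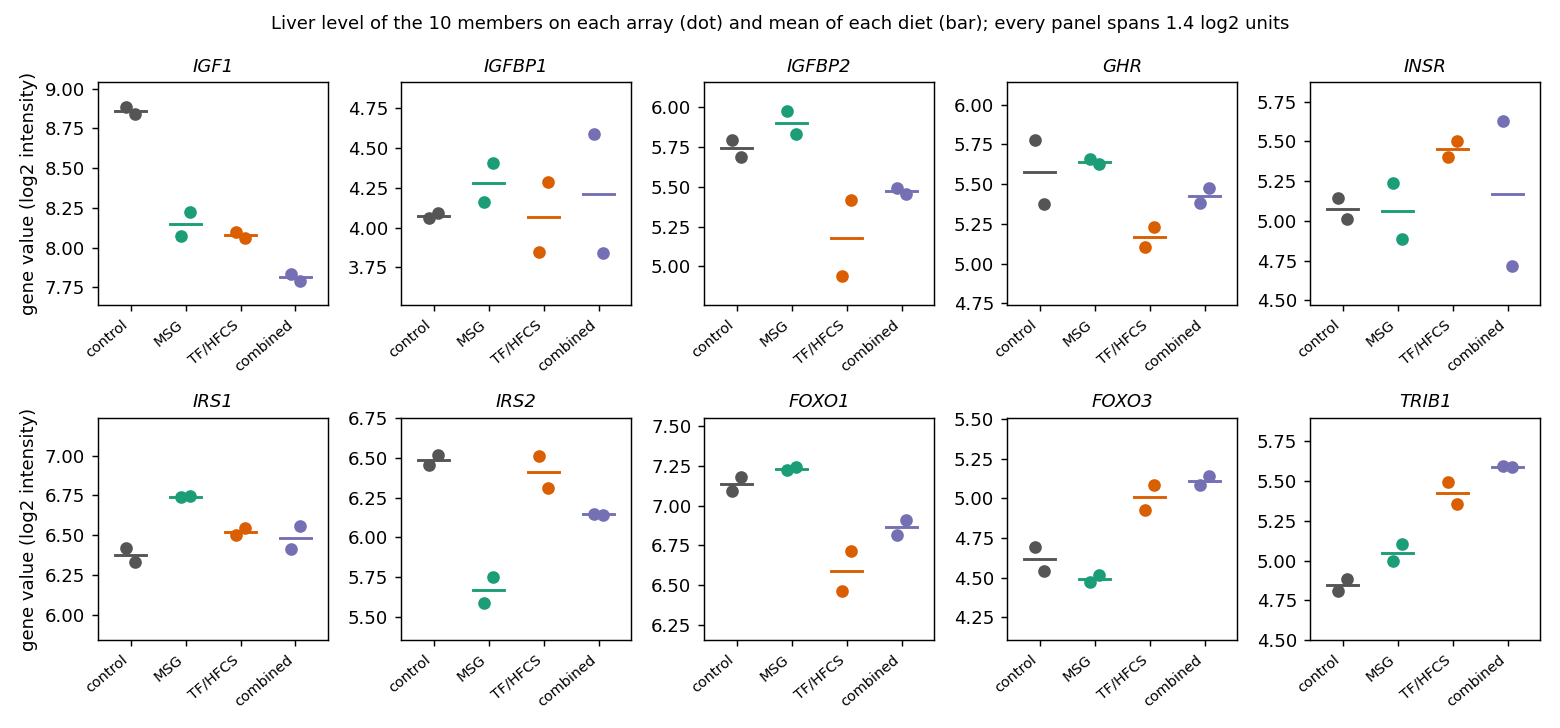
Level of each of the 10 genes on each of the 8 arrays, as log2 normalised intensity on the vertical axis, with the arrays grouped by diet. Points are single arrays and short lines are diet means. IGF1 stands highest on both control arrays and TRIB1 lowest there.

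Singly fitted probe sets gave few calls. Of the 54 probe sets in use, 2 passed for the trans-fat/HFCS main effect (limma, adjusted over 128550 probe sets), 1 of FOXO1 and 1 of IGFBP2, both lower, where 2.71% of all probe sets passed. Neither passed with any 1 of the 8 arrays left out, without both trans-fat/HFCS arrays or with the replicate number as a block. The comparison of all 4 diets called 0 (background 1.07%), the MSG main effect 0 (background 0.163%) and the interaction 0 (background 0.0521%).

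**Figure D2:**
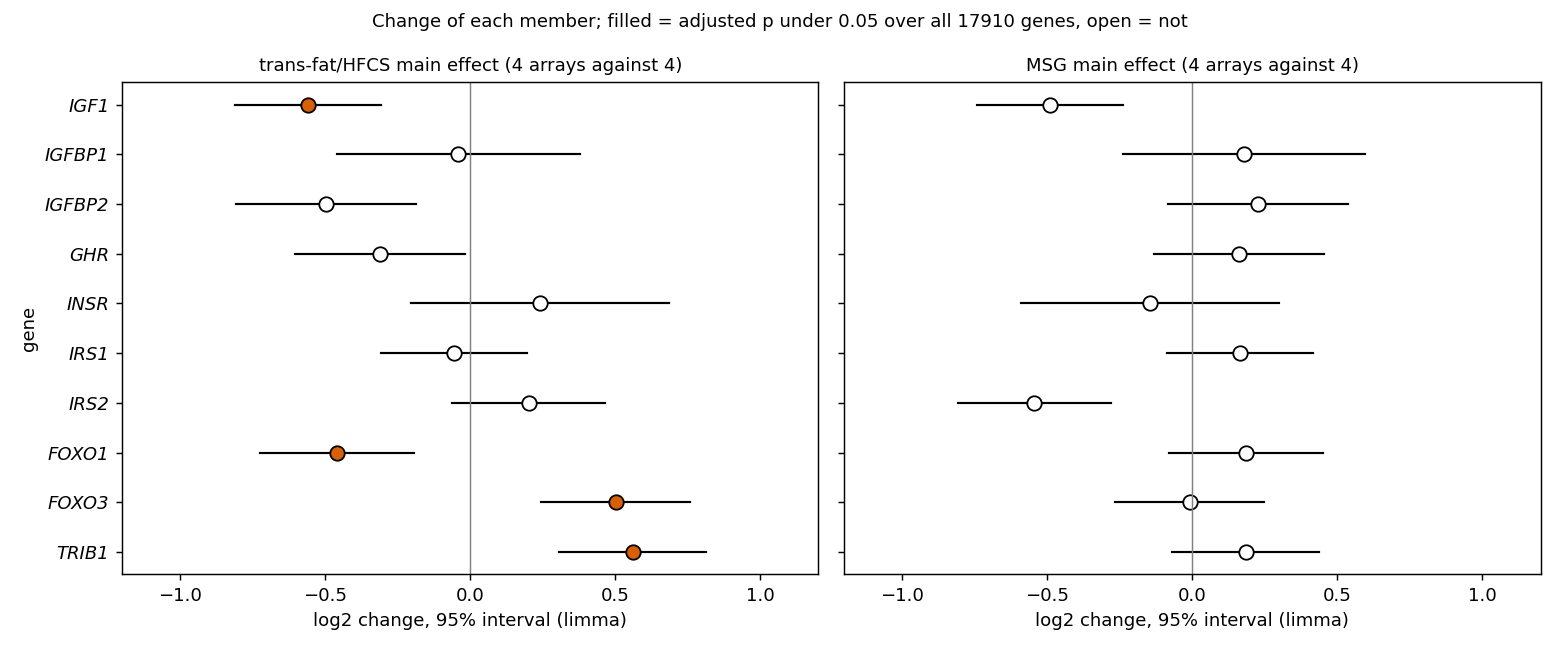
Log2 change of each of the 10 genes with its 95% interval for the trans-fat/HFCS and MSG main effects, filled where the adjusted p was under 0.05. IGF1 and FOXO1 lie below 0 and FOXO3 and TRIB1 above it with trans-fat/HFCS, and no gene is filled for MSG.

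IGF1, the growth-promoting hormone secreted by hepatocytes, was lower in every diet group than in control. Its level was 8.89 and 8.84 on the control arrays, 8.07 and 8.22 with MSG, 8.10 and 8.06 with trans-fat/HFCS, and 7.83 and 7.79 with the combined diet. Both control arrays lay above all 6 others, and both combined arrays below all 6 others, while the MSG and trans-fat/HFCS arrays overlapped. A control group standing entirely above or below the 6 other arrays was found in 11.7% of all genes, and among the 10 genes in IGF1 and TRIB1.

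Tested by diet, IGF1 fell by 0.79 (1.72-fold; SE 0.16; adjusted p = 0.038, limma) with trans-fat/HFCS and by 1.05 (2.07-fold; SE 0.16; adjusted p = 0.024) with the combined diet. The MSG diet against control gave -0.72 (SE 0.16) with an adjusted p of 0.18. The combined diet was not separable from either single diet: the difference was -0.33 from MSG (95% interval -0.69 to 0.02; adjusted p = 0.32) and -0.26 from trans-fat/HFCS (-0.62 to 0.09; adjusted p = 0.67). As a main effect, IGF1 fell by 0.56 with trans-fat/HFCS (SE 0.11; adjusted p = 0.021). The MSG main effect was -0.49 (SE 0.11; adjusted p = 0.18). Under the processing alternatives described below, this MSG main effect passed in 2 of 19. These were log2(value + 8) (limma, adjusted p = 0.038) and trended robust moderation (adjusted p = 0.011). The MSG diet against control passed in 2 of 18. The interaction was 0.45 with a 95% interval of -0.05 to 0.95 (adjusted p = 0.60), so the combined difference was smaller than the sum of both single differences by an amount that did not pass.

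The trans-fat/HFCS main effect on IGF1 ranged from -0.60 to -0.52 when single arrays were left out. The call held only without combined 1 or combined 2 (adjusted p up to 0.046) and ended without any of the 6 other arrays (adjusted p 0.052 to 0.080). For trans-fat/HFCS against control it likewise held only without combined 1 or combined 2 (adjusted p = 0.044) and ended without the others (-0.81 to -0.76; adjusted p 0.058 to 0.22). For the combined diet against control it ended without control 1, control 2, combined 1 or combined 2 (-1.07 to -1.02; adjusted p 0.068 to 0.17). Without both trans-fat/HFCS arrays, the effect comes down to combined against MSG, at -0.33 (adjusted p = 0.35). The combined arrays, where muscle markers were near the control level, had the lowest IGF1; the part of the muscle signal in the trans-fat/HFCS main effect was not tested.

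IGF1's 10 probe sets did not move equally. In use were 8 of the 10, and all 8 were lower with each diet than in control. For the trans-fat/HFCS main effect they ranged from -1.28 to -0.02 and for the MSG main effect from -0.90 to -0.25. The brightest, 7965876, read 11.36 and 11.44 on control arrays, 10.79 and 11.00 with MSG, 11.04 and 11.09 with trans-fat/HFCS and 11.12 and 11.03 with the combined diet. All 6 treated arrays were below control here, but in no order that set trans fat and HFCS apart. Probe set 7965883, of middle brightness, read 9.14 and 9.12 in control, 8.14 and 8.33 with MSG, 8.23 and 7.93 with trans-fat/HFCS and 7.69 and 7.74 with the combined diet. There the combined arrays were lowest and the change against control was -1.42 (SE 0.24), with an adjusted p of 0.10 over all probe sets. The dimmest in use, 7965874, passed the brightness limit only through the arrays without trans fat and HFCS; without it IGF1's trans-fat/HFCS main effect was -0.59 (adjusted p = 0.021).

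With its 3 brightest probe sets left out, IGF1's trans-fat/HFCS main effect was -0.85 (adjusted p = 0.0040). From those 3 alone it was -0.08 (adjusted p = 0.73). The main effect sets the diets with trans fat and HFCS against control and MSG together, and these 3 were also lower with MSG. Against control alone, all 8 probe sets in use were lower with trans-fat/HFCS, from -1.38 to -0.31. The MSG main effect was -0.58 without the 3 brightest and -0.34 from them alone. The combined diet against control gave -1.43 and -0.42 in the same order, and the MSG diet against control -0.77 and -0.62. This split was chosen after the values were seen. Over the 19 alternative settings tried, the adjusted p of the trans-fat/HFCS main effect ran from 0.0011 to 0.72 and the sign was negative in all 19. Over 18 alternatives it ran from 0.0024 to 0.32 for trans-fat/HFCS against control and from 0.00067 to 0.34 for combined against control.

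**Figure D3:**
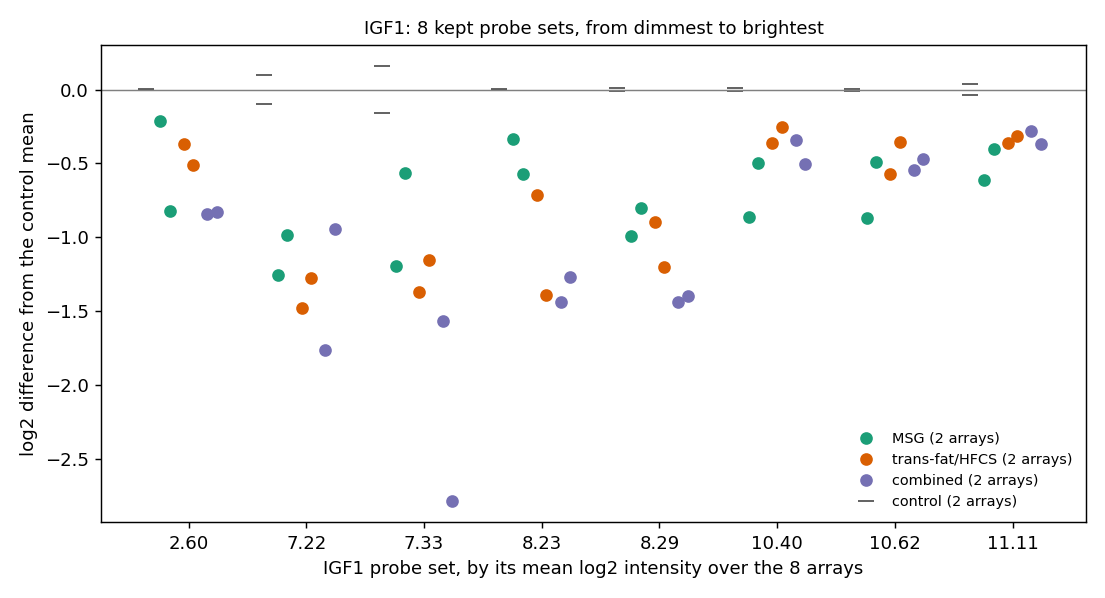
Difference from the control mean, in log2 units, of the 8 IGF1 probe sets in use, from the dimmest at the left to the brightest; dots are single arrays by diet and dashes the control arrays. All 8 lie below 0 in every diet mean, and the 3 brightest show smaller differences with trans-fat/HFCS and the combined diet than most of the others.

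IGFBP1, the binding protein that insulin represses, showed no difference that passed in any of the 9 comparisons. Its level was 4.06 and 4.09 in control, 4.16 and 4.41 with MSG, 3.84 and 4.28 with trans-fat/HFCS and 4.59 and 3.84 with the combined diet. The 2 combined arrays spanned the range of the others. The trans-fat/HFCS main effect was -0.04 (95% interval -0.46 to 0.38; adjusted p = 0.92) and the MSG main effect 0.18 (-0.24 to 0.60). Of its 10 probe sets 7 were in use, and with trans-fat/HFCS 3 were higher and 4 lower. One of the 7 passed the brightness limit only through the arrays without trans fat and HFCS, and without it the main effect was 0.03 (adjusted p = 0.94).

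IGFBP2, a binding protein secreted by hepatocytes, was lower on all 4 arrays with trans fat and HFCS but missed the threshold. It read 5.79 and 5.69 in control, 5.98 and 5.83 with MSG, 4.94 and 5.42 with trans-fat/HFCS and 5.49 and 5.45 with the combined diet. The highest array with trans fat and HFCS (5.49) lay below the lowest without (5.69). The main effect was -0.50 (1.41-fold; SE 0.14; adjusted p = 0.061, limma), and -0.43 (adjusted p = 0.24) without both trans-fat/HFCS arrays. Over 19 alternative settings its adjusted p ran from 0.025 to 0.91 and passed in 6, always with a negative sign.

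Within IGFBP2, 4 of 5 probe sets were lower with trans-fat/HFCS and 1 was higher. Probe set 8048206 fell by 1.45 (SE 0.25; adjusted p = 0.041 over all probe sets). It read 5.63 and 5.82 in control, 5.41 and 4.71 with MSG, 2.75 and 3.33 with trans-fat/HFCS and 4.63 and 5.06 with the combined diet, so that both trans-fat/HFCS arrays were far below the rest and combined overlapped MSG. Without both trans-fat/HFCS arrays its change was -0.22 (adjusted p = 0.84), and the call ended without any 1 of the 8 arrays (-1.63 to -1.28; adjusted p 0.065 to 0.14) and under the 3 other settings of the probe-set fit (adjusted p 0.0501 to 0.082). The part of the muscle signal was not tested. In the opposite direction, 8048207 read 4.08 and 4.06 in control and between 4.74 and 5.83 on the 6 other arrays, a main effect of 0.91 (adjusted p = 0.14).

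GHR, the growth hormone receptor, did not pass in any comparison. It read 5.78 and 5.37 in control, 5.66 and 5.63 with MSG, 5.10 and 5.23 with trans-fat/HFCS and 5.38 and 5.47 with the combined diet. Both trans-fat/HFCS arrays were the lowest of the 8, and the control arrays spanned those of MSG and of the combined diet. The trans-fat/HFCS main effect was -0.31 (SE 0.13; 95% interval -0.61 to -0.02; adjusted p = 0.18), and all 9 probe sets, each in use, were lower, from -0.85 to -0.11. For the MSG main effect 8 of the 9 were higher and the gene's change was 0.16 (95% interval -0.13 to 0.45).

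INSR, the insulin receptor, varied more between the 2 combined arrays than between any diet means. Its values were 5.14 and 5.01 in control, 5.24 and 4.89 with MSG, 5.40 and 5.50 with trans-fat/HFCS and 5.63 and 4.72 with the combined diet. The combined group alone held both the highest and the lowest array. The trans-fat/HFCS main effect was 0.24 (SE 0.20; 95% interval -0.20 to 0.69; adjusted p = 0.49) and the MSG main effect -0.15 (-0.59 to 0.30). Of 22 probe sets 10 were in use, 5 higher and 5 lower with trans-fat/HFCS, and 12 lay at or below the median brightness.

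IRS1, an adaptor of both the insulin and the IGF1 receptor, was highest with MSG alone. It read 6.42 and 6.33 in control, 6.74 and 6.74 with MSG, 6.50 and 6.54 with trans-fat/HFCS and 6.41 and 6.56 with the combined diet. The MSG arrays overlapped no other diet, while combined overlapped both trans-fat/HFCS and control. The MSG diet against control gave 0.37 (95% interval 0.01 to 0.72; adjusted p = 0.63). The trans-fat/HFCS diet lay 0.15 above control and the combined diet lay -0.26 from MSG, and the interaction that compares these was -0.40 (95% interval -0.91 to 0.10). None of these passed. Of its 4 probe sets, 2 were in use.

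IRS2, the adaptor whose transcription insulin represses, was lowest with MSG alone. Its values were 6.45 and 6.52 in control, 5.58 and 5.75 with MSG, 6.51 and 6.31 with trans-fat/HFCS and 6.15 and 6.14 with the combined diet. Control and trans-fat/HFCS overlapped, combined lay below both, and MSG lay below all. The MSG diet against control gave -0.82 (1.77-fold; SE 0.16; adjusted p = 0.14, limma) and the MSG main effect -0.54 (SE 0.12; adjusted p = 0.15). The interaction was 0.55, with an unadjusted p of 0.041 and an adjusted p of 0.53.

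The 2 probe sets of IRS2 disagreed. Probe set 7972747 read 6.83 and 6.77 in control, 4.91 and 5.15 with MSG, 7.03 and 6.69 with trans-fat/HFCS and 6.20 and 6.28 with the combined diet. Probe set 7972746 stayed between 5.94 and 6.34 on all 8 arrays. Their mean brightness was close, at 6.23 for 7972747 and 6.12 for 7972746. With the brighter probe set alone standing for the gene, the MSG diet against control was -1.77 (adjusted p = 0.019 over all genes) and the MSG main effect -1.19 (adjusted p = 0.024). In that setting the trans-fat/HFCS main effect also passed, as higher, at 0.63 (limma, adjusted p = 0.035). Probe set 7972746 had an MSG main effect of 0.11. Over 19 alternatives the adjusted p of the MSG main effect ran from 0.021 to 0.51 and passed in 4, with a negative sign in all 19.

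**Figure D4:**
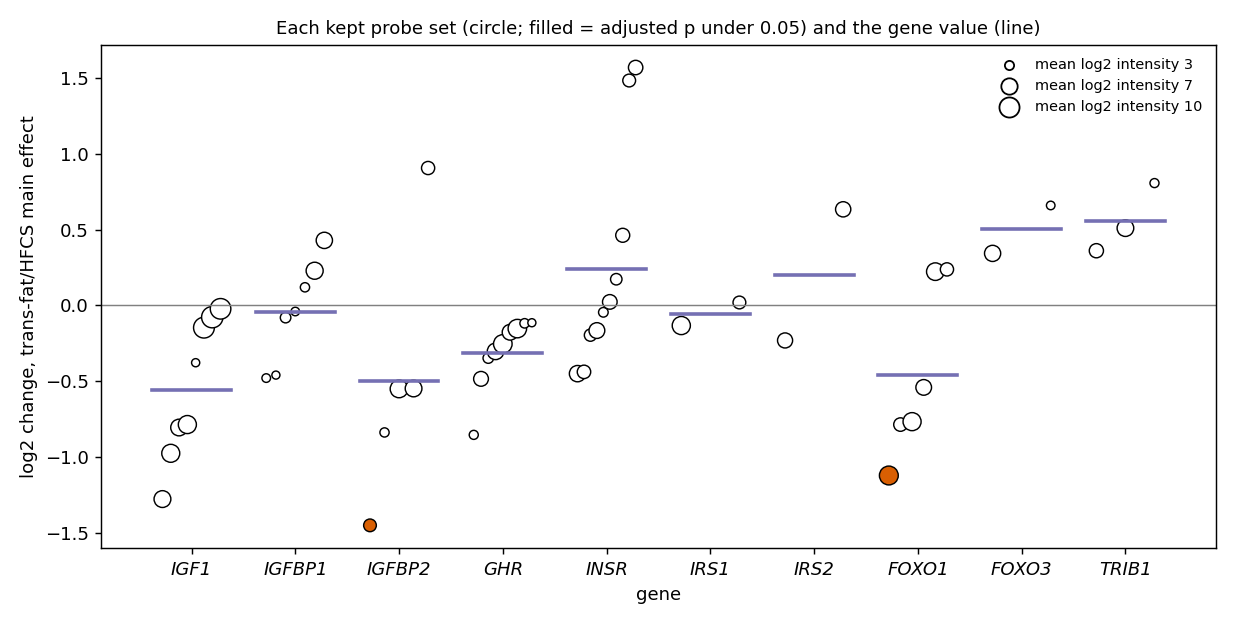
Log2 change (trans-fat/HFCS main effect, vertical axis) of each of the 54 probe sets in use, by gene; circles are probe sets, larger where brighter, filled where the adjusted p was under 0.05, and lines are gene values. All IGF1 and GHR circles lie below 0 and all FOXO3 and TRIB1 circles above it, whereas those of INSR, IGFBP1, IGFBP2, FOXO1, IRS1 and IRS2 lie on both sides.

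FOXO1, the main FOXO factor of hepatic glucose production, fell with trans-fat/HFCS. It read 7.09 and 7.18 in control, 7.22 and 7.24 with MSG, 6.46 and 6.71 with trans-fat/HFCS and 6.82 and 6.91 with the combined diet. The diets ranked MSG, control, combined, trans-fat/HFCS with no overlap between neighbours, although MSG and control differed by only 0.10 (95% interval -0.28 to 0.47). The main effect was -0.46 (1.38-fold; SE 0.12; adjusted p = 0.047, limma). Against control, trans-fat/HFCS gave -0.55 (adjusted p = 0.12) and combined -0.27 (adjusted p = 0.45).

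That call was close to the threshold. It ended without any 1 of the 8 arrays (-0.52 to -0.40; adjusted p 0.064 to 0.15). It was -0.37 (adjusted p = 0.30) without both trans-fat/HFCS arrays. Over 19 alternatives the adjusted p ran from 0.0057 to 0.44, passing in 6. The part of the muscle signal was not tested.

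Of FOXO1's 6 probe sets, all in use, 4 were lower with trans-fat/HFCS and 2 higher, from -1.12 to 0.24. Probe set 7971178 fell by 1.12 (SE 0.18; adjusted p = 0.032 over all probe sets). It read 9.53 and 9.35 in control, 9.74 and 9.33 with MSG, 7.85 and 7.85 with trans-fat/HFCS and 8.97 and 8.79 with the combined diet, with no overlap between these 2 diets and the others. Its call ended without any 1 of the 8 arrays (-1.22 to -1.02; adjusted p 0.063 to 0.13), and without both trans-fat/HFCS arrays the change was -0.66 (adjusted p = 0.40). Over all settings of the probe-set fit its adjusted p ran from 0.0026 to 0.40. Probe sets 7971181 and 7971182 gave 0.24 and 0.22. With the median of the probe sets in place of their mean, FOXO1's main effect was -0.26 (adjusted p = 0.44).

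FOXO3, another FOXO factor of liver, was called higher with trans-fat/HFCS, but the call depends on 1 dim probe set. Its values were 4.69 and 4.54 in control, 4.47 and 4.52 with MSG, 4.93 and 5.08 with trans-fat/HFCS and 5.08 and 5.14 with the combined diet. All 4 arrays with trans fat and HFCS lay above all 4 without. The main effect was 0.50 (1.42-fold; SE 0.11; adjusted p = 0.032, limma). The MSG main effect was -0.01 (95% interval -0.27 to 0.25). Combined against MSG, the value without both trans-fat/HFCS arrays, was larger at 0.62 (adjusted p = 0.12).

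FOXO3's result rested on 2 of 4 probe sets, both higher. The bright one, 8121368, changed by 0.34 (adjusted p = 0.38 over all probe sets) and read 6.91 and 6.69 in control, 6.45 and 6.74 with MSG, 6.86 and 6.97 with trans-fat/HFCS and 7.16 and 7.18 with the combined diet. The dim one, 8121369, changed by 0.66 (adjusted p = 0.11) and read 2.29 to 2.49 without trans fat and HFCS against 3.00 to 3.20 with them. Its mean without them, 2.42, lay below the brightness limit of 2.43, so it was in use only through the arrays where it was high, and the FOXO3 call gives no support of its own. With all 4 probe sets FOXO3's main effect was 0.21 (adjusted p = 0.26), and with the bright one alone 0.34 (adjusted p = 0.13 with the other genes as before, and 0.15 where every gene was read by its brightest probe set). The call ended without any 1 of the 8 arrays (0.46 to 0.54; adjusted p 0.061 to 0.12). Over 19 alternatives the adjusted p ran from 0.022 to 0.26 with a positive sign in all. Another probe set, 8013308, is annotated to both FOXO3 and FOXO3B and lies outside the list; it read 7.41 to 7.82 without trans fat and HFCS and 7.80 to 7.90 with them.

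TRIB1 rose with trans-fat/HFCS. It read 4.81 and 4.89 in control, 5.00 and 5.10 with MSG, 5.49 and 5.36 with trans-fat/HFCS and 5.59 and 5.59 with the combined diet. The diets ranked control, MSG, trans-fat/HFCS, combined with no overlap between neighbours. The gap between the highest array without and the lowest with trans fat and HFCS was from 5.10 to 5.36. The main effect was 0.56 (1.47-fold; SE 0.11; adjusted p = 0.021, limma). The combined diet against control gave 0.74 (adjusted p = 0.064) and trans-fat/HFCS against control 0.58 (adjusted p = 0.098). The MSG diet against control was 0.20 (95% interval -0.16 to 0.56), and the interaction was -0.04 (-0.54 to 0.47).

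All 3 TRIB1 probe sets in use, of 4, were higher with trans-fat/HFCS, from 0.36 to 0.81. The brightest, 8148308, read 6.83 and 6.86 in control, 7.03 and 7.09 with MSG, 7.47 and 7.61 with trans-fat/HFCS and 7.38 and 7.40 with the combined diet. The 4 arrays with trans fat and HFCS were again above all others. Probe set 8148307, with the smallest change, overlapped: MSG 2 read 5.74, above trans-fat/HFCS at 5.63 and 5.40. The largest change, 0.81, came from the dim 8148306, with a mean of 2.93 beside the brightness limit of 2.43. It read 2.29 to 2.68 without trans fat and HFCS and 3.06 to 3.64 with them. The gene's change was 0.54, nearly as large, without both trans-fat/HFCS arrays (adjusted p = 0.16). The call held without trans-fat/HFCS 2, combined 1 or combined 2 (adjusted p up to 0.0497) and ended without any of the 5 other arrays (adjusted p 0.051 to 0.083), with values of 0.52 to 0.59 over all 8. With the median of the probe sets it was 0.36 (adjusted p = 0.34), and over 19 alternatives the adjusted p ran from 0.010 to 0.34 with a positive sign in all.

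The other genes of the pathway came from 7 lists that together name 104 genes, of which 95 were tested. With trans-fat/HFCS 2 rose and 9 fell, beside 4.44% of all genes called higher and 3.22% lower, and the median change was -0.01 beside 0.02 over all genes. With MSG 0 rose and 2 fell, beside 0.329% of all genes called, and the median was 0.02. The lists below are to be read against these shares. Each of the 11 calls with trans-fat/HFCS ended when at least 1 array was left out, and 4 of them (GSK3B, ONECUT1, SESN3 and FASN) ended without any 1 of the 8. Over the 19 alternatives (18 for SOCS1), the call held most often for IGF2, in 16 (adjusted p 0.0039 to 0.25), and least often for SESN3 (adjusted p 0.015 to 0.52) and FASN (0.010 to 0.63), in 5 each. The other adjusted p-values ran up to 0.16 for RICTOR, 0.34 for GSK3B, 0.23 for SOCS1, 0.33 for ONECUT1, 0.12 for BCL6, 0.14 for G6PC, 0.35 for FBXO32 and 0.18 for SCD.

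**Figure D5:**
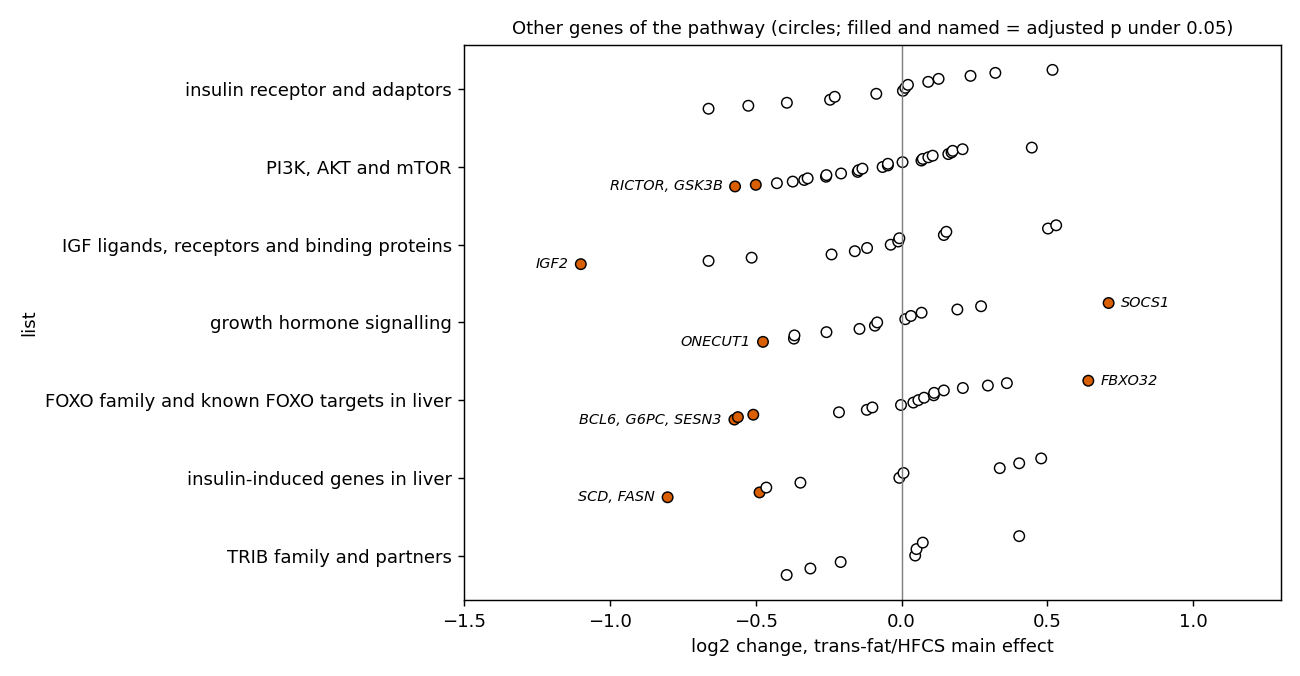
Log2 change (trans-fat/HFCS main effect) of the other pathway genes, 1 circle per gene, by list. Filled circles passed an adjusted p of 0.05 and are named in order from the lowest change; IGF2 has the lowest value and SOCS1 the highest among those named.

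Among the 13 other IGF ligands, receptors and binding proteins, 1 fell with trans-fat/HFCS and 0 rose (median -0.04). That gene was IGF2, the other IGF ligand, which read 5.33 and 5.66 in control, 5.30 and 5.06 with MSG, 4.17 and 3.70 with trans-fat/HFCS and 4.88 and 4.20 with the combined diet. It fell by 1.10 (SE 0.19; adjusted p = 0.012, limma), with both of its probe sets lower. The call ended without control 2 (-1.02; adjusted p = 0.051) or MSG 1 (-1.04; adjusted p = 0.057), and without both trans-fat/HFCS arrays the value was -0.64 (adjusted p = 0.25), a change by more than 1.5 times; the part of the muscle signal was not tested. IGF1R, the receptor of IGF1, gave -0.66 (adjusted p = 0.068) and the binding protein IGFBP5 0.53 (adjusted p = 0.071).

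In the list of insulin receptor relatives and adaptors, 0 of 14 tested genes passed for either main effect, and the medians were 0.01 and 0.05. The adaptor GAB1 gave -0.39 (adjusted p = 0.066) and IRS4, on 1 probe set, 0.52 (adjusted p = 0.074).

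For PI3K, AKT and mTOR, 2 of 25 tested genes fell with trans-fat/HFCS and 0 rose (median -0.07). RICTOR, the defining subunit of mTOR complex 2, read 4.95 and 4.87 in control, 5.18 and 5.29 with MSG, 4.48 and 4.52 with trans-fat/HFCS and 4.56 and 4.44 with the combined diet. It fell by 0.57 (adjusted p = 0.020), with 21 of 24 probe sets lower. Its call held only without combined 1 or combined 2 and ended without the others (-0.60 to -0.54; adjusted p up to 0.078). GSK3B, the kinase that restrains glycogen synthase, fell by 0.50 (adjusted p = 0.037), with 13 of 14 probe sets lower. Without any 1 array it was -0.56 to -0.44 (adjusted p 0.057 to 0.12). Without both trans-fat/HFCS arrays, as combined against MSG, RICTOR was -0.73 (adjusted p = 0.082) and GSK3B -0.59 (adjusted p = 0.15), both larger in size. PIK3CA, a catalytic subunit of PI3 kinase, gave -0.37 (adjusted p = 0.090).

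In growth hormone signalling, 1 of 13 tested genes rose and 1 fell with trans-fat/HFCS (median -0.08). SOCS1, an inhibitor of JAK signalling measured by 1 probe set, read 3.05 and 2.86 in control, 3.07 and 3.18 with MSG, 4.08 and 3.72 with trans-fat/HFCS and 3.48 and 3.73 with the combined diet. It rose by 0.71 (adjusted p = 0.018). The call ended without control 1, control 2, MSG 1 or trans-fat/HFCS 1 (adjusted p 0.052 to 0.073; values over all 8 arrays 0.62 to 0.80), and without both trans-fat/HFCS arrays it was 0.48 (adjusted p = 0.23). ONECUT1, a hepatic transcription factor, fell by 0.48 (adjusted p = 0.048) and its call ended whichever 1 of the 8 arrays was left out (-0.53 to -0.42; adjusted p 0.069 to 0.15); without both trans-fat/HFCS arrays it was -0.36 (adjusted p = 0.33). SOCS2, a target and inhibitor of growth hormone signalling, gave -0.26 with trans-fat/HFCS and 0.47 with MSG (adjusted p = 0.35).

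Among 17 tested FOXO relatives and known FOXO targets, 1 rose and 3 fell with trans-fat/HFCS (median 0.06), and 1 fell with MSG. G6PC, the last enzyme of glucose production, read 8.68 and 8.45 in control, 9.45 and 9.07 with MSG, 8.25 and 8.25 with trans-fat/HFCS and 8.56 and 8.34 with the combined diet. It fell by 0.56 (adjusted p = 0.039), with all 5 probe sets lower, and its call held only without MSG 2 (adjusted p up to 0.14 without the others; values over all 8 arrays -0.66 to -0.47). The repressor BCL6 fell by 0.57 (adjusted p = 0.031) and its call held only without combined 2 (adjusted p up to 0.12 without the others; values over all 8 arrays -0.67 to -0.48). SESN3, a sestrin, fell by 0.51 (adjusted p = 0.048), with all 9 probe sets lower, and its call ended whichever 1 of the 8 arrays was left out (-0.59 to -0.43; adjusted p 0.056 to 0.16). Without both trans-fat/HFCS arrays, as combined against MSG, these 3 were -0.80, -0.71 and -0.74 (adjusted p 0.11, 0.12 and 0.11), larger in size. Mean G6PC was 9.26 with MSG, 8.57 in control and 8.45 with the combined diet, whose arrays overlapped control. For BCL6 and SESN3 both combined arrays lay below both control arrays.

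FBXO32, a ubiquitin ligase best known from skeletal muscle, went the other way. It read 3.72 and 3.91 in control, 3.29 and 3.04 with MSG, 4.50 and 4.92 with trans-fat/HFCS and 3.41 and 3.69 with the combined diet, so that only the 2 arrays with high muscle markers stood above control. It rose by 0.64 with trans-fat/HFCS (adjusted p = 0.032) and fell by 0.90 with MSG (adjusted p = 0.048). Without both trans-fat/HFCS arrays the values were 0.38 (adjusted p = 0.35) and -0.65 (adjusted p = 0.42). The first call held only without trans-fat/HFCS 1 or combined 1 (values 0.54 to 0.74; adjusted p up to 0.12), and the MSG call ended without any 1 array (-1.01 to -0.80; adjusted p 0.058 to 0.23). The part of the muscle signal was not tested.

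Of 9 tested insulin-induced genes, 2 fell with trans-fat/HFCS (median -0.01) and 1 fell with MSG. FASN, the fatty acid synthase, read 4.90 and 4.92 in control, 4.54 and 4.27 with MSG, 4.10 and 4.16 with trans-fat/HFCS and 4.10 and 4.33 with the combined diet. It fell by 0.49 (adjusted p = 0.046), lost its call whichever 1 of the 8 arrays was left out (-0.55 to -0.42; adjusted p 0.0504 to 0.14) and was -0.20 (adjusted p = 0.63) without both trans-fat/HFCS arrays. SCD, the stearoyl-CoA desaturase, fell by 0.80 (adjusted p = 0.026), but its brightest probe set alone gave 0.97 (adjusted p = 0.12), the opposite sign. Its call ended without control 2, MSG 1, trans-fat/HFCS 1, trans-fat/HFCS 2 or combined 1 (adjusted p 0.057 to 0.091; values over all 8 arrays -0.94 to -0.66), and without both trans-fat/HFCS arrays it was -0.76 (adjusted p = 0.18).

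EGR1, an immediate early gene induced by insulin, read 5.91 and 6.16 in control, 3.96 and 4.03 with MSG, 5.55 and 5.98 with trans-fat/HFCS and 5.35 and 5.10 with the combined diet. It was lowest on both MSG arrays, the same 2 arrays on which IRS2 was lowest, there through 1 of its 2 probe sets. Whether the 2 genes are related was not tested. Diet means of EGR1 were 6.04 in control and 4.00 with MSG, but 5.76 with trans-fat/HFCS and 5.23 with the combined diet. The MSG main effect therefore averages 2 unequal differences. EGR1 fell by 1.29 for the MSG main effect (adjusted p = 0.0086, limma). The call ended without control 2 (-1.22; adjusted p = 0.068), MSG 1 (-1.27; adjusted p = 0.065) or MSG 2 (-1.30; adjusted p = 0.051), and in a model with no interaction term it was -1.29 with an adjusted p of 0.23. Over 19 alternatives the adjusted p ran from 0.0019 to 0.49, passing in 13. Without both trans-fat/HFCS arrays, the value is that of MSG against control, -2.04 (adjusted p = 0.0059).

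Of 7 tested TRIB relatives and partners, 0 passed for either main effect, at medians of 0.05 and 0.02. C/EBP alpha (CEBPA), the factor that TRIB1 helps degrade, read 4.44 and 4.49 in control, 5.02 and 4.89 with MSG, 4.26 and 4.76 with trans-fat/HFCS and 5.08 and 4.96 with the combined diet. Both diets with MSG were above both without, and the MSG main effect was 0.50 (adjusted p = 0.35). CEBPD gave -0.39 with trans-fat/HFCS (adjusted p = 0.066) and CEBPB -0.28 with MSG (adjusted p = 0.58).

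For each of the 4 called genes, the 2 genes with the most similar profile over the 8 arrays were taken from 11370 other genes with at least 3 probe sets and a symbol known in cat. With so many genes and 8 arrays that share 4 diets, high values are usual, and they are given as a description. IGF1 was most like LIMD1 (Pearson r 0.98) and MNT (0.97), and FOXO1 most like SHANK2 (0.98) and PLEKHH1 (0.97). FOXO3 was most like RBM14 (0.98) and FHDC1 (0.98), on a profile that includes the dim probe set in use only through the arrays where it was high. TRIB1 was most like ZNF804A (0.98) and APOA1 (0.98), the latter the main protein of high-density lipoprotein, whose own trans-fat/HFCS change was 0.27.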

How the data were processed

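Livers of 4 diets were measured on 8 arrays (Affymetrix HuGene 1.0 ST), 2 per diet, from 250 ng of RNA. The deposited values are linear normalised intensities; the submitters' processing notes name GCRMA, Partek and hg19, with no versions or roles. Intensities ran from 2.22 to 22966. The number of arrays limits the precision.

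Values were taken to log2. Probe sets with a mean above the median of all (log2 2.43) were kept. A gene's value was the mean over kept probe sets of 1 symbol; 10159 probe sets with several genes and 22622 with none named no gene. All 8 arrays entered one 4-group model in limma 3.58.1 (R 4.3.3), with empirical Bayes moderation (4 residual and 5.01 prior degrees of freedom) and Benjamini-Hochberg adjustment over all genes, threshold 0.05. Probe sets were fitted likewise. The scripts were tested on simulated data.

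The genes and lists were chosen with earlier results of these data known. From each list, up to 3 tested genes with the smallest p and all that passed are named. Replicate numbers do not pair the arrays: over 6 pairs of diets the deviations correlated at -0.06 to 0.04. Alternatives changed the filter, the summary per gene, the normalisation, the offset, the moderation, the model and the arrays. No sequences or coordinates are given, since probe sequences and a genome were not used here.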

Additional observations from a re-analysis of the deposited data

How the results depend on the processing

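With 2 arrays per diet, most calls lie close to the threshold. Over the members' log2 changes under the alternatives, 1293 kept direction and side of the threshold, 26 came to pass, 64 no longer passed, 87 uncalled values changed sign or moved, and 0 called values changed sign; among the called changes of other named pathway genes only that of SCD turned, to 0.97 with trans-fat/HFCS under both the 75th percentile filter (adjusted p = 0.089) and the brightest probe set (adjusted p = 0.12). The number of members called for the trans-fat/HFCS main effect, 4, became 2 with the 75th percentile filter, 1 with the median of probe sets, 2 with the replicate block, 0 without both trans-fat/HFCS arrays and 0 to 2 without single arrays. For any difference among the 4 diets it was 1, and became 3 with no filter, 0 with the median of probe sets, 2 with the brightest probe set, 4 with log2(value + 8), 4 with trended robust moderation, 0 with the replicate block and 0 without any single array. For trans-fat/HFCS against control it was 1, and became 2 with no filter, 0 with the median, 2 with log2(value + 8), 2 with trended moderation, 0 with the replicate block, 0 with only the 4 arrays compared and 0 to 1 without single arrays. For the combined diet against control it was 1, and became 0 with the median, 0 with the brightest probe set, 2 with log2(value + 8), 2 with trended moderation, 0 with only the 4 arrays compared and 0 to 1 without single arrays. For the MSG diet against control and for the MSG main effect it was 0, and in both became 1 with no filter, 1 with the brightest probe set, 2 with log2(value + 8) and 2 with trended moderation, and combined against MSG went from 0 to 1 with the brightest probe set. Member probe sets called for the trans-fat/HFCS main effect, 2, became 0 with the replicate block, 0 without any single array and 0 without both trans-fat/HFCS arrays; those for the 4 diets went from 0 to 1 with no filter and 3 with trended moderation. Members with no overlap, 4, became 2 with the median of probe sets. With the replicate block, whose numbers do not pair the arrays, IGF1 and TRIB1 kept their trans-fat/HFCS call (adjusted p 0.037 and 0.038) and FOXO1 and FOXO3 did not (0.064 and 0.053). Over all genes the trans-fat/HFCS main effect called 1372, and 595 with the median of probe sets, 2182 with the brightest, 2062 with log2(value + 8), 443 to 1234 without single arrays and 233 without both trans-fat/HFCS arrays; the MSG main effect called 59, and 1 in a model with no interaction. The settings on all genes' counts, on the pathway genes, on single probe sets and on the dim or 3 brightest probe sets of a gene were chosen after seeing the data. The causes of these shifts were not tested.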

Other observations

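Markers of stellate cells and fibroblasts had a summed intensity of 107 to 111 on the 2 combined arrays, below the 145 to 153 of the 6 other arrays. Of 6 such genes 1 was called lower with trans-fat/HFCS. The stellate list was not alone in setting these 2 arrays apart. Lymphocyte markers were also lowest there, at 36 to 37 against 40 to 60 on the other arrays. Macrophage markers were highest there, at 230 to 241 against 181 to 220. The same 2 arrays had the lowest IGF1 gene value of the 8, but in each of its 3 brightest probe sets MSG 1 was lowest. Whether any of these measurements are related was not tested.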
